A study of Homo sapiens with 12 samples.

Results

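The response of 501Mel cells, a human melanoma line, to silencing of CHD3 was taken from 6 of the 12 libraries of the study. These were 3 libraries of cells transfected with an siRNA pool against CHD3 (siCHD3 replicates 1 to 3) and the 3 libraries of control siRNA that stand in the same table (siCtrl replicates 4 to 6). All were harvested 72 h after transfection in the same line, with no other treatment, and the labels give no genetic change that would set the groups apart. The other 6 libraries, siCHD4 replicates 1 to 3 with siCtrl replicates 1 to 3, were used only to show where siCHD3 differed. Of 57778 rows in the table, 33154 are genes with counts, and 16115 of these passed the filter on low counts and were tested. Each silencing rests on 1 siRNA pool and 1 cell line. The study calls its replicates biological and does not say whether each library had a culture of its own. The p-values measure the spread between these libraries.

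CHD3 and CHD4 are ATP-dependent chromatin remodelling enzymes and alternative catalytic subunits of the NuRD complex. NuRD joins nucleosome remodelling to histone deacetylation by HDAC1 and HDAC2, with MTA, MBD, RBBP, GATAD2 and CDK2AP1 proteins as partners. Melanoma cells are often described along an axis from a melanocytic state, driven by MITF and SOX10, to an invasive state rich in AXL, AP-1 and TEAD activity.

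Libraries held between 38573214 and 57219281 counts. Pairs within siCtrl correlated at 0.984 to 0.992 in log2 CPM (CPM is a library's counts scaled to a fixed total with TMM factors) over genes, pairs within siCHD3 at 0.989 to 0.991 and pairs between the groups at 0.971 to 0.980. The melanocytic markers were abundant, with a summed CPM over 30 lineage genes of 20700 to 21800 in siCtrl and 19900 to 24800 in siCHD3. Of 22 immune, 9 endothelial, 8 fibroblast and 8 keratinocyte markers, 7, 1, 0 and 3 were at 0 counts in all 6 libraries. The summed CPM of the immune markers was 5.02 to 6.33 in siCtrl and 2.61 to 3.73 in siCHD3, and that of the fibroblast markers was 14.9 to 17.0 and 21.3 to 36.9. ITGAX, an integrin chain of myeloid cells, was called lower among 4 immune markers tested, and LUM, a matrix proteoglycan, was called higher among 5 fibroblast markers tested. Their part in other results was not tested. In bulk RNA, fewer cells of a type and less RNA per cell cannot be told apart.

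CHD3 itself (ENSG00000170004, chr17:7788114-7816078 of GRCh37) was lower in every siCHD3 library. Its CPM was 77.4, 95.5 and 96.4 in siCtrl and 18.9, 18.1 and 17.7 in siCHD3. The groups were far apart and the 3 siCHD3 libraries almost equal. The log2 fold change was -2.30 ± 0.15 (SE, n = 3 per group; edgeR quasi-likelihood test, adjusted p = 2.75e-06), which leaves 20.3% of the siCtrl mean. siCtrl replicates 1 to 3, scaled together with these libraries, held 108 to 140 CPM, so that CHD3 after siCHD3 was below all 6 siCtrl libraries.

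CHD4, the paralogue, moved the other way. Its CPM was 300, 330 and 359 in siCtrl and 572, 525 and 589 in siCHD3, with no overlap. The log2 fold change of 0.77 ± 0.13 had an adjusted p of 0.0013 but stayed under the fold needed for a call, and siCtrl replicates 1 to 3 held 531 to 610 CPM, which overlapped siCHD3. CHD4 shares 46.9% of its exon bases with another gene model on the same strand. CHD5, the member of the subfamily best known from neurons, was below the filter, with 3, 14 and 9 counts in siCtrl and 9, 12 and 2 in siCHD3. Of 20 tested CHD and NuRD genes, 10% were called, CHD3 included, beside 8.22% of all genes. CHD8, a remodeller that binds beta-catenin, was the only one called higher. Its CPM was 46.6, 50.5 and 46.6 in siCtrl and 134, 116 and 154 in siCHD3 (log2 fold change 1.49 ± 0.15, adjusted p = 4.01e-05). The siCtrl libraries of the other table lay higher still, at 193 to 241 CPM. A further 6 members (CHD4, CHD6, MTA1, MTA3, GATAD2A and CDK2AP1) had positive changes with adjusted p under 0.05 and log2 fold changes of 0.55 to 0.83, and the core deacetylases HDAC1 and HDAC2 had log2 changes of 0.28 and 0.00 (adjusted p = 0.154 and 0.994).

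**Figure D1:**
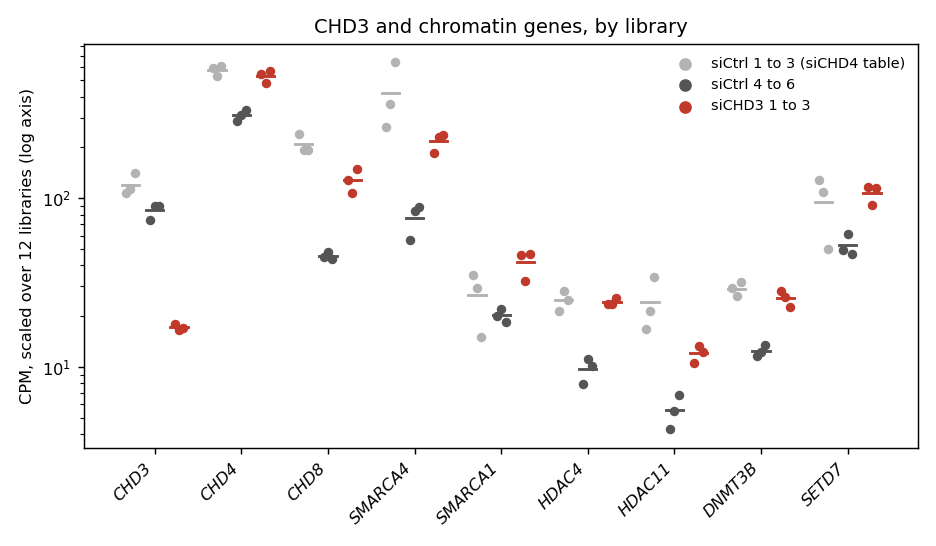
CPM (log axis, scaled over the 12 libraries) of CHD3, CHD4, CHD8 and other chromatin genes in siCtrl replicates 1 to 3, siCtrl replicates 4 to 6 and siCHD3 replicates 1 to 3; points are libraries and bars are means. CHD3 lies below both sets of siCtrl after siCHD3, whereas CHD4, CHD8, SMARCA4, HDAC4, HDAC11 and DNMT3B rise from siCtrl 4 to 6 to levels that overlap or lie below siCtrl 1 to 3.

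The levels of siCtrl replicates 1 to 3 bear on every result that follows, because both sets of siCtrl carry the same label and differ in many of the genes that changed. siCtrl replicates 4 to 6 share their table with siCHD3 and are its controls, whereas siCtrl replicates 1 to 3 share theirs with siCHD4. Of the 615 genes called higher that could also be measured in the other table, 228 were above all 6 siCtrl libraries in all 3 siCHD3 libraries, and of 675 called lower, 183 were below all 6. Over all 15767 such genes, 5.83% were above and 5.27% below. A call favours genes whose groups lie apart, so these shares are no matched background for called genes. All siCHD3 libraries were above siCtrl 4 to 6 in 3168 of 16115 genes tested, and above all 6 in 920 of 15767. The counts below were 2805 and 831. When all 6 siCtrl libraries were used as the control group, only 13 genes were called higher and 6 lower, all of them called in the same direction against siCtrl 4 to 6. Table and silencing cannot be told apart in that fit, and the spread between the siCtrl sets enters its error. The level in siCtrl 1 to 3 is given beside the genes the results turn on, in CPM scaled over all 12 libraries, and overlap with siCtrl 1 to 3 was read on that scale.

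Against its own siCtrl, siCHD3 raised 627 genes and lowered 698. A call needed an adjusted p below 0.05 together with a log2 change beyond 1 in either direction. These are 3.89% and 4.33% of the 16115 genes tested, or 8.22% together. Without the fold threshold, 1856 genes were higher and 1419 lower (11.5% and 8.81%, or 20.3% together). All 3 siCHD3 libraries lay above all 3 siCtrl libraries in 19.7% of genes and below them in 17.4%. The median log2 fold change of all genes was -0.02, with changes in both directions. Genes that fell were mostly of low abundance, with a median of 1.65 CPM in siCtrl, against 3.78 CPM for genes that rose and 15.8 CPM for all genes tested. Of 12568 protein-coding genes, 4.25% were called higher and 3.29% lower. Of 2022 long non-coding RNAs, 2.87% were called higher and 9.50% lower.

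**Figure D2:**
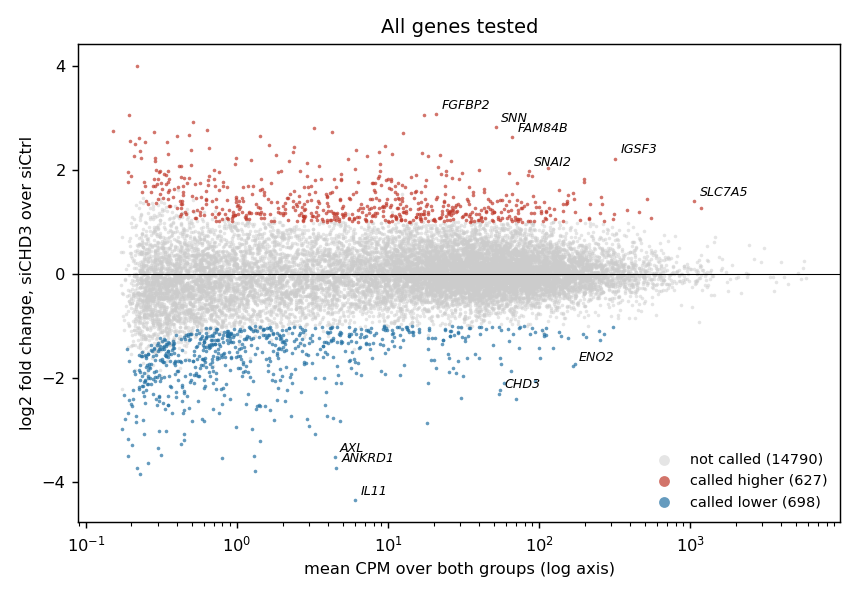
Log2 fold change of siCHD3 over siCtrl replicates 4 to 6 against mean CPM over both groups (log axis) for the 16115 genes tested, with 627 called higher in red, 698 called lower in blue and the rest in grey. The largest falls, IL11 and ANKRD1, lie under 10 CPM, and CHD3, ENO2, IGSF3 and SLC7A5 are among the changed genes of higher abundance.

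Among the largest falls were IL11, ANKRD1 and AXL. IL11, a cytokine that signals through gp130, had 10.8, 11.3 and 12.2 CPM in siCtrl and 0.556, 1.14 and 0.0541 CPM in siCHD3. This was the largest fall among the named genes, with a log2 fold change of -4.35 ± 0.62 (adjusted p = 0.0017). ANKRD1, a nuclear ankyrin-repeat protein and a standard readout of YAP and TEAD, had 8.60, 9.97 and 6.63 CPM in siCtrl and 0.927, 0.828 and 0.198 CPM in siCHD3 (-3.72 ± 0.44, adjusted p = 0.00058). AXL, a receptor tyrosine kinase that marks the invasive state, fell from 8.35, 7.97 and 8.03 CPM to 1.14, 0.851 and 0.180 CPM (-3.52 ± 0.48, adjusted p = 0.0013). In all 3 genes siCHD3 replicate 3 was the lowest library and the groups did not overlap. In siCtrl replicates 1 to 3 the same genes had 0.263 to 0.430 CPM (IL11), 0.225 to 0.647 CPM (ANKRD1) and 0.230 to 1.07 CPM (AXL). siCHD3 overlapped those levels in each case.

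ITGA5 and DKK1 were likewise low in siCtrl replicates 1 to 3. ITGA5, the fibronectin receptor chain, had 5.58, 5.86 and 6.22 CPM in siCtrl and 1.04, 0.851 and 0.252 CPM in siCHD3 (log2 fold change -3.07 ± 0.39, adjusted p = 0.00054). DKK1, a secreted inhibitor of WNT, had 9.45, 7.97 and 7.73 CPM in siCtrl and 1.32, 1.63 and 0.613 CPM in siCHD3 (-2.83 ± 0.31, adjusted p = 0.00011). Both had all siCHD3 libraries below siCtrl 4 to 6, and levels in siCtrl 1 to 3 were 0.581 to 0.928 CPM for ITGA5 and 0.405 to 0.473 CPM for DKK1. PLAU, the urokinase plasminogen activator, fell by 3.79 on the log2 scale, and DIRAS3, a Ras-like tumour suppressor, by 3.54. KRTAP2-3 fell by 3.49, OTOGL by 2.97 and the macrophage growth factor CSF1 by 2.95. DIRAS3, KRTAP2-3 and OTOGL after siCHD3 overlapped siCtrl 1 to 3 (0 to 0.0438, 0.2 to 0.478 and 0.141 to 0.387 CPM), as did PLAU. CSF1 was below all 6. PLAU shares 31% of its exon bases with C10orf55 on the opposite strand, and the strand of counting is not given. UCN2, a peptide of the corticotropin-releasing family, went from 4.02, 6.19 and 5.61 CPM to 0.742, 0.828 and 0.523 CPM (-2.93 ± 0.28, adjusted p = 3.54e-05).

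**Figure D3:**
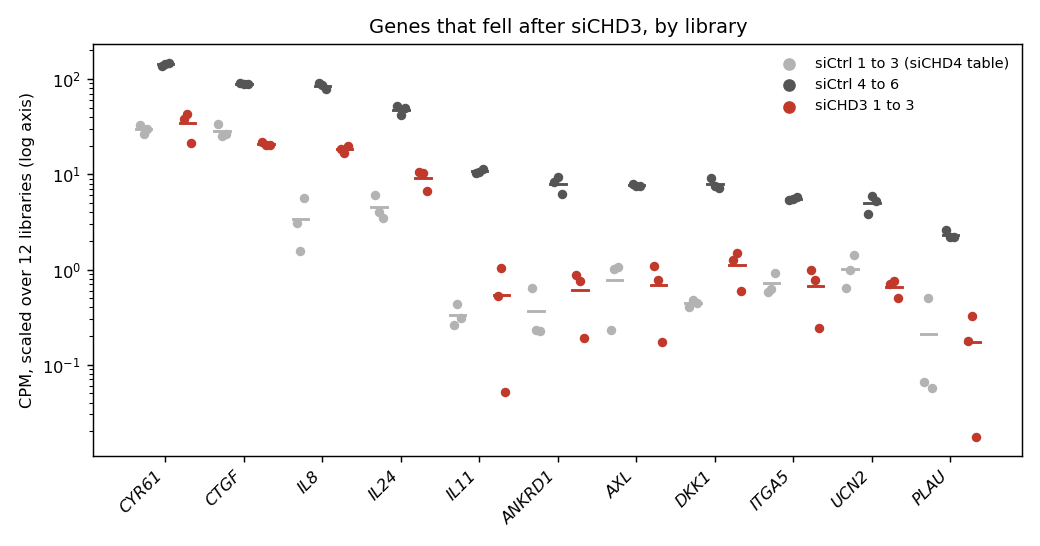
CPM (log axis, scaled over the 12 libraries) of 11 genes that fell after siCHD3; points are libraries and bars are means. All siCHD3 libraries lie below siCtrl replicates 4 to 6, and siCHD3 replicate 3 (right-hand red point) is the lowest for all of these genes but CTGF and IL8. For IL11, ANKRD1, AXL, ITGA5, PLAU, CYR61 and UCN2 siCHD3 overlaps siCtrl replicates 1 to 3. For IL8, IL24 and DKK1 it lies above them, and only for CTGF does it lie below them.

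The genes with the smallest p-values among those that fell were more evenly lowered. CTGF (CCN2), a matricellular protein and TEAD target, had 94.4, 93.3 and 95.7 CPM in siCtrl and 23.1, 21.9 and 21.0 CPM in siCHD3. The libraries of each group differed by less than 3 CPM, and the log2 fold change was -2.10 ± 0.14 (adjusted p = 2.75e-06). siCtrl 1 to 3 had 25.2 to 33.7 CPM, so that siCHD3 was below all 6 siCtrl libraries. IL8 (CXCL8), a neutrophil chemokine, had 96.1, 92.1 and 83.7 CPM in siCtrl and 19.5, 18.1 and 20.5 CPM in siCHD3 (-2.23 ± 0.14, adjusted p = 2.75e-06), whereas siCtrl 1 to 3 held only 1.55 to 5.60 CPM. ENO2, neuronal enolase, had 261, 236 and 282 CPM in siCtrl and 66.8, 75.3 and 85.0 CPM in siCHD3 (-1.78 ± 0.14, adjusted p = 1.63e-05). It was below all 6 siCtrl libraries (247 to 473 CPM in siCtrl 1 to 3) and was called lower also with all 6 as controls. TMEM64 and CPB2-AS1 fell by 2.40 and 2.09 on the log2 scale. CPB2-AS1 was below all 6 siCtrl libraries, whereas TMEM64 after siCHD3 overlapped the 12.9 to 31.1 CPM of siCtrl 1 to 3.

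Several of the genes that fell are known targets of AP-1, whose FOS and JUN subunits bind TGAGTCA, or of TEAD factors, which bind GGAATG. The RefSeq windows from 250 bases before to 50 bases after the start of 6 of them are shown because they carry these letters, with matches in capitals on either strand (TGACTCA and CATTCC in reverse). Their positions were found by exact match to GRCh37. They are ANKRD1 (chr10:92680795-92681094, minus strand), CTGF (chr6:132272463-132272762, minus strand), DKK1 (chr10:54073791-54074090, plus strand), ITGA5 (chr12:54813001-54813300, minus strand), IL11 (chr19:55881782-55882081, minus strand) and IL8 (chr4:74606036-74606335, plus strand).
ANKRD1: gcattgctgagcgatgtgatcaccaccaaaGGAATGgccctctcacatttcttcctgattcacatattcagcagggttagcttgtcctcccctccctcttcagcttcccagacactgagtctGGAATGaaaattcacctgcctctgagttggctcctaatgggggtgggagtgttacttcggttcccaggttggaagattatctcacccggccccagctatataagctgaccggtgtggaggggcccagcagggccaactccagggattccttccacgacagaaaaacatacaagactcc
CTGF: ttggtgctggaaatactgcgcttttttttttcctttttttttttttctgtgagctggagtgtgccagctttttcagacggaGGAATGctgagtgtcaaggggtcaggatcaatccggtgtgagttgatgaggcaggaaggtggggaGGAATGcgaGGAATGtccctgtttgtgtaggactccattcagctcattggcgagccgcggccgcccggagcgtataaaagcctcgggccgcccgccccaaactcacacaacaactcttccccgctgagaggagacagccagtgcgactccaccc
DKK1: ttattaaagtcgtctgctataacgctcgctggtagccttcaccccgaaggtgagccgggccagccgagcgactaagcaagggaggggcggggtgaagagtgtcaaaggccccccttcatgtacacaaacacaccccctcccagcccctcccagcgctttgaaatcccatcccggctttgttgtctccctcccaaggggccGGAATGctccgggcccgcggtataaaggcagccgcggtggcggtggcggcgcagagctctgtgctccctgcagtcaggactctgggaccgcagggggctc
ITGA5: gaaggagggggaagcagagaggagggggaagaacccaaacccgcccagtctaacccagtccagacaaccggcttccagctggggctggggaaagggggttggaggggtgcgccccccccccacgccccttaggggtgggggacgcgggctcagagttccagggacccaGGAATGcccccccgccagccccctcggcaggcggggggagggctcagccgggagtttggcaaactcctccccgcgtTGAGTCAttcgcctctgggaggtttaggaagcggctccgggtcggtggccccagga
IL11: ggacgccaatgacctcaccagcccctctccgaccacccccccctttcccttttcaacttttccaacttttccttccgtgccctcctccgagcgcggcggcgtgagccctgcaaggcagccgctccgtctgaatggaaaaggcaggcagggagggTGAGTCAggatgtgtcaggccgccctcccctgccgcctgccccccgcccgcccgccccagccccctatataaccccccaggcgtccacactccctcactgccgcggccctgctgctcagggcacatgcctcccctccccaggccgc
IL8: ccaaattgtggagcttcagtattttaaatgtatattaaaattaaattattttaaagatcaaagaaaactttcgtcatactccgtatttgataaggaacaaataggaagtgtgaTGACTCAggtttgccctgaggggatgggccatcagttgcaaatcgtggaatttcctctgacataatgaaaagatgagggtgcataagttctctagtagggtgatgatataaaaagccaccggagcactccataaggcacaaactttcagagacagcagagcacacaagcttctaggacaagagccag
ANKRD1, CTGF, DKK1 and ITGA5 had 2, 3, 1 and 1 TEAD matches, and ITGA5, IL11 and IL8 had 1 AP-1 match each, at -6, -96 and -137 from the start. The 2 motifs share no letters at these places. Over all 35116 windows of the same length, 4.95% held the AP-1 letters and 14.0% the TEAD letters. Among the 11069 tested genes with a window, 4.87% held AP-1 in at least 1 window, as did 13.5% of the 363 called lower and 5.56% of the 432 called higher. TEAD letters stood in 15.1% of those tested, 15.2% of those called lower and 18.3% of those called higher. A match describes the sequence and is not evidence of binding.

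Among 23 tested genes of the invasive state and of epithelial-mesenchymal transition, 10 were called lower and 2 higher (52.2%, beside 8.22% of all genes). The median log2 fold change of the list was -0.43, beside -0.02 for all genes. Besides AXL, TNC and TEAD4 were among the falls. TNC, a matrix glycoprotein of invasive fronts, had 3.38, 3.40 and 2.63 CPM in siCtrl and 1.07, 0.662 and 0.703 CPM in siCHD3 (-1.95 ± 0.27, adjusted p = 0.00042). TEAD4 fell by 1.12 (adjusted p = 0.0012), and both genes were below all 6 siCtrl libraries. The list held rises as well. SNAI2, the transcriptional repressor Slug of melanocytes and neural crest, rose from 35.7, 35.9 and 31.9 CPM to 142, 131 and 135 CPM (1.98 ± 0.13, adjusted p = 3.84e-06). It was above all 6 siCtrl libraries (39.7 to 82.0 CPM in siCtrl 1 to 3), and WNT5A, a ligand of non-canonical WNT signalling, rose by 1.19 ± 0.25 (adjusted p = 0.005) and was above all 6 as well.

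Of 22 tested YAP and TEAD targets, 5 were called lower and 1 higher (27.3%, beside 8.22% of all genes, median log2 fold change -0.55). CYR61 (CCN1), the partner of CTGF in that list, had 142, 154 and 160 CPM in siCtrl and 40.0, 46.9 and 22.3 CPM in siCHD3 (-2.06 ± 0.24, adjusted p = 0.00048), with 26.5 to 32.7 CPM in siCtrl 1 to 3. Of 33 genes of ERK output and immediate early response, 5 fell and 2 rose (21.2%, beside the same 8.22%, median -0.20). FOSB, an AP-1 subunit, fell by 1.80 ± 0.22 (adjusted p = 0.00018), EGR3 by 2.27 ± 0.26 and DUSP5, an ERK phosphatase, by 1.35 ± 0.15, all 3 to levels that overlapped siCtrl 1 to 3. EPHA4, an ephrin receptor, rose by 1.08 ± 0.15 (adjusted p = 0.00037). MYC had 66.6, 75.1 and 81.1 CPM in siCtrl and 34.5, 38.9 and 40.6 CPM in siCHD3. Its log2 change of -0.97 ± 0.14 (adjusted p = 0.00059) fell just short of the fold threshold, and it was below all 6 siCtrl libraries.

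Of 22 tested cytokines and chemokines, 5 were called lower and 1 higher (27.3%, beside 8.22% of all genes), with a median of -0.81. Besides IL11, IL8 and CSF1, the falls included IL24, with 54.6, 43.98 and 53.6 CPM in siCtrl and 11.01, 11.3 and 6.92 CPM in siCHD3 (-2.38 ± 0.20, adjusted p = 2.08e-05), and HBEGF, a ligand of the EGF receptor (-1.55 ± 0.16). siCtrl 1 to 3 held 3.52 to 6.04 CPM of IL24 and 9.56 to 12.4 CPM of HBEGF. CSF1 was below all 6 siCtrl libraries. IL24 shares 41.6% of its exon bases with FCMR on the opposite strand. CCL18, a chemokine of macrophages that was not in the list, rose from 0.487, 0.386 and 0.281 CPM to 2.46, 3.24 and 1.62 CPM (2.65 ± 0.35, adjusted p = 0.00026). It was above all 6 siCtrl libraries and was called higher also against all 6.

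Genes for proteolysis, matrix and adhesion changed in both directions. Of 20 tested proteases and inhibitors, 5 fell and 2 rose (median -0.35), of 32 matrix genes 6 fell and 1 rose (median -0.38), and of 23 adhesion genes 4 fell and 4 rose (median 0.17). The shares called were 35%, 21.9% and 34.8%, beside 8.22% of all genes. MMP2, a gelatinase, had 23.9, 29.7 and 28.9 CPM in siCtrl and 53.9, 51.7 and 61.5 CPM in siCHD3 (1.02 ± 0.15, adjusted p = 0.00059), while TIMP1, an inhibitor of metalloproteinases, fell by 1.19 ± 0.21. COL19A1 had 78.9, 103 and 75.0 CPM in siCtrl and 28.1, 22.3 and 27.3 CPM in siCHD3 (-1.73 ± 0.17, adjusted p = 3.89e-05), and COL12A1 fell by 1.29. Both collagens and TIMP1 were below all 6 siCtrl libraries. MMP2 after siCHD3 overlapped the 34.7 to 49.3 CPM of siCtrl 1 to 3. LUM rose from 11.7, 10.8 and 9.08 CPM to 28.1, 19.7 and 17.7 CPM (1.05 ± 0.20, adjusted p = 0.0027), above all 6.

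Among adhesion genes, CEACAM1, a cell-cell adhesion molecule of melanoma and leukocytes, had 94.7, 85.1 and 81.6 CPM in siCtrl and 339, 258 and 331 CPM in siCHD3. Its log2 fold change was 1.83 ± 0.15 (adjusted p = 1.63e-05). With 82.0 to 100 CPM in siCtrl 1 to 3, both sets of siCtrl were alike and CEACAM1 was called higher against all 6. ITGA9, an integrin chain that binds tenascin, rose by 1.56 ± 0.17 (adjusted p = 0.0001) and overlapped siCtrl 1 to 3. MCAM (CD146), an adhesion molecule of melanoma, fell from 222, 290 and 287 CPM to 74.2, 82.9 and 84.2 CPM (-1.73 ± 0.14, adjusted p = 1.88e-05), and ITGAX from 2.84, 2.97 and 3.34 CPM to 0.603, 0.520 and 0.847 CPM (-2.20 ± 0.27, adjusted p = 0.00018). MCAM and ITGAX were below all 6 siCtrl libraries.

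The melanocytic genes were called about as often as genes at large. MITF had 828, 823 and 660 CPM in siCtrl and 702, 576 and 849 CPM in siCHD3 (log2 fold change -0.12 ± 0.16, adjusted p = 0.653). SOX10 had 380, 453 and 558 CPM and 406, 544 and 501 CPM (0.06 ± 0.16, adjusted p = 0.835), and TYR, tyrosinase, 882, 773 and 756 CPM and 744, 638 and 763 CPM (-0.17 ± 0.13, adjusted p = 0.417). The groups overlapped in all 3 genes. Of 30 lineage genes tested, 2 were called lower (6.67%, beside 8.22% of all genes called) and 0 higher by edgeR, against 2 and 1 by DESeq2, and 10 had an unadjusted p under 0.05. By adjusted p alone 4 were positive and 3 negative, beside 20.3% of all genes in either direction. The 2 called were TRPM1, a cation channel and host of a melanocyte microRNA, with 397, 354 and 325 CPM in siCtrl and 122, 139 and 184 CPM in siCHD3 (-1.28 ± 0.16, adjusted p = 0.00023), and the transporter ABCB5, with 204, 182 and 165 CPM and 85.0, 78.2 and 90.6 CPM (-1.12 ± 0.14, adjusted p = 0.00017). siCtrl 1 to 3 held 38.1 to 69.0 CPM of ABCB5, below siCHD3, and 176 to 185 CPM of TRPM1.

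By edgeR, no gene was called among 35 of DNA replication and 35 of mitosis, beside 8.22% of all genes. The list medians were -0.04 and 0.10. DESeq2 called none either, 8 and 9 had an unadjusted p under 0.05, and by adjusted p alone 2 of each list were positive and 3 and 2 negative. MKI67, a marker of cycling cells, had 240, 322 and 251 CPM in siCtrl and 509, 386 and 465 CPM in siCHD3 (0.74 ± 0.16, adjusted p = 0.0049), under the fold needed for a call, and siCtrl 1 to 3 held 431 to 616 CPM. Of 27 tested genes of the p53 list, 2 were called higher and 3 lower (18.5%, beside 8.22% of all genes). The p53-induced genes BTG2 and AEN fell by 1.19 and 1.16 on the log2 scale and were below all 6 siCtrl libraries, and PLK3, a polo-like kinase, fell by 1.05. CDKN1A, the p53-induced inhibitor of cyclin-dependent kinases, was below the filter.

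In the BCL2 family, 2 of 21 tested genes rose and 1 fell (14.3%, beside 8.22% of all genes). HRK, a pro-apoptotic BH3 protein, had 15.6, 19.4 and 18.4 CPM in siCtrl and 50.2, 45.7 and 49.1 CPM in siCHD3 (1.44 ± 0.15, adjusted p = 6.34e-05). BIK, another BH3 protein, rose by 2.38 ± 0.50 from 0.128, 0.0772 and 0.281 CPM to 0.812, 1.18 and 0.505 CPM, and both genes were above all 6 siCtrl libraries. MCL1, the anti-apoptotic member, fell from 359, 330 and 330 CPM to 150, 146 and 183 CPM (-1.09 ± 0.14, adjusted p = 0.00019), within the 87.9 to 172 CPM of siCtrl 1 to 3 in part.

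Of 46 enzymes that modify histones or DNA, 5 were called higher and 0 lower by edgeR and by DESeq2 (median 0.25). That is 10.9%, beside 8.22% of all genes called in either direction and 3.89% called higher. An unadjusted p under 0.05 was found for 21. By adjusted p alone 13 were positive and 1 negative, beside 11.5% and 8.81% of all genes. HDAC4, a class IIa deacetylase, had 8.27, 11.8 and 10.8 CPM in siCtrl and 24.6, 25.5 and 26.5 CPM in siCHD3 (1.31 ± 0.17, adjusted p = 0.00027). DNMT3B, a de novo DNA methyltransferase, rose by 1.04 ± 0.16, HDAC11 by 1.11 ± 0.21 and SETD7, a lysine methyltransferase, by 1.02 ± 0.15. Of 34 remodellers outside the CHD family, 2 rose and 0 fell by both tools, a called share of 5.88% beside 8.22% of all genes. Without the fold threshold, 11 were positive and 1 negative by adjusted p, beside 11.5% and 8.81% of all genes. An unadjusted p under 0.05 was found for 19. SMARCA4 (BRG1), the ATPase of SWI/SNF, had 58.8, 88.4 and 94.8 CPM in siCtrl and 193, 250 and 247 CPM in siCHD3 (1.51 ± 0.19, adjusted p = 0.00025), and SMARCA1, the ISWI ATPase SNF2L, rose by 1.03 ± 0.17. siCtrl 1 to 3 held 265 to 639 CPM of SMARCA4, 21.4 to 28.2 CPM of HDAC4 and 26.3 to 31.9 CPM of DNMT3B. None of these 6 genes was above all 6 siCtrl libraries. Against all 6, the changes of SMARCA4, HDAC11 and CHD8 were -0.24, -0.34 and -0.01, and no member of either list was called.

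Replication-dependent histone genes were of low abundance. All 14 tested had positive changes and 3 were called higher (21.4%, beside 8.22% of all genes called, median 0.67). HIST1H2AC had 2.54, 2.39 and 4.08 CPM in siCtrl and 7.88, 9.36 and 7.10 CPM in siCHD3 (1.44 ± 0.24, adjusted p = 0.0013), above all 6 siCtrl libraries, as was HIST1H2BD, which rose by 1.20 ± 0.28. Histone genes are near-identical copies, and the counting of reads shared between them is not given.

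Genes of sterol and fatty acid synthesis rose in 3 of 34 cases and fell in 0 by edgeR and by DESeq2, and 16 had an unadjusted p under 0.05 (median 0.30). The share called by edgeR was 8.82%, near the 8.22% of all genes. HMGCS1, which makes the precursor of mevalonate, had 258, 303 and 274 CPM in siCtrl and 1025, 777 and 451 CPM in siCHD3 (1.43 ± 0.26, adjusted p = 0.0052), above all 6 siCtrl libraries. It shares 37.7% of its exon bases with a gene on the opposite strand. SCD, the stearoyl-CoA desaturase, had 149, 161 and 160 CPM in siCtrl and 358, 315 and 378 CPM in siCHD3 (1.17 ± 0.13, adjusted p = 8.83e-05), and LSS, lanosterol synthase, rose by 1.26 ± 0.20. siCtrl 1 to 3 held more SCD than siCHD3, at 467 to 579 CPM, and against all 6 siCtrl libraries its change was -0.04. LSS after siCHD3 overlapped the 92.9 to 204 CPM of siCtrl 1 to 3.

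Of 38 tested genes of the ATF4 response and of serine metabolism, 2 rose and 1 fell, which is 7.89% beside 8.22% of all genes. SLC7A5, the leucine transporter LAT1, had 353, 646 and 751 CPM in siCtrl and 1362, 1862 and 1393 CPM in siCHD3 (1.40 ± 0.26, adjusted p = 0.0065), and DDIT4, an inhibitor of mTORC1, rose by 1.20 ± 0.15. For both genes siCHD3 overlapped siCtrl 1 to 3, which held 1370 to 3450 CPM of SLC7A5 and 54.5 to 70 CPM of DDIT4. Against all 6 siCtrl libraries SLC7A5 changed by 0.022. ASNS, asparagine synthetase, fell from 39.3, 35.6 and 46.4 CPM to 19.1, 20.7 and 20.1 CPM (-1.02 ± 0.15, adjusted p = 0.00068), below all 6 siCtrl libraries. ASNS shares 49.3% of its exon bases with another gene model on the same strand. Of 36 genes of glycolysis and hypoxia, ENO2 and ADM fell, 0 rose by edgeR or DESeq2, and 16 had an unadjusted p under 0.05. The share called was 5.56%, beside 8.22% of all genes. ADM, adrenomedullin, had 75.1, 82.5 and 89.3 CPM in siCtrl and 24.4, 31.3 and 25.4 CPM in siCHD3 (-1.61 ± 0.15, adjusted p = 3.66e-05). siCHD3 overlapped the 23 to 30.6 CPM of ADM in siCtrl 1 to 3. PKM, pyruvate kinase, had 1799, 1818 and 2587 CPM and 1801, 2117 and 1918 CPM, which overlapped (-0.09 ± 0.16, adjusted p = 0.752).

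No member was called among 48 cytosolic ribosomal protein genes, 38 nuclear and 13 mitochondrial genes of the respiratory chain, 24 ER chaperones and 32 genes of ribosome biogenesis, by edgeR or by DESeq2. An unadjusted p under 0.05 was found for 1, 6, 0, 4 and 14 of them. The medians were -0.03, 0.05, -0.06, 0.01 and -0.27. In the last list 27 of 32 changes were negative, and 7 of these had an adjusted p under 0.05. Among heat shock genes, 2 of 19 fell, which is 10.5% beside 8.22% of all genes called. CRYAB, a small heat shock protein, went from 43.9, 32 and 44.1 CPM to 10.4, 12.5 and 9.46 CPM (-1.89 ± 0.18, adjusted p = 3.89e-05), below all 6 siCtrl libraries, and HMOX1, haem oxygenase, fell by 1.41 ± 0.24. HMOX1 after siCHD3 overlapped the 50 to 122 CPM of siCtrl 1 to 3. GABARAPL1, an autophagy protein, was the 1 of 34 lysosome and autophagy genes that fell (-1.17 ± 0.16, below all 6). In that list 2.94% were called, beside 8.22% of all genes.

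In the interferon list 3 of 35 tested genes rose, and in the antigen presentation list 3 of 22 rose and 1 fell. The shares called were 8.57% and 18.2%, beside 8.22% of all genes, so that the interferon list was near the background. IFIT2, an antiviral effector, had 1.08, 1.49 and 0.969 CPM in siCtrl and 4.80, 2.91 and 3.03 CPM in siCHD3 (1.59 ± 0.28, adjusted p = 0.0019), OAS1 rose by 1.30 ± 0.29 and the RNA sensor DDX58 by 1.06 ± 0.20. CTSS, the cathepsin that trims the class II invariant chain, had 2.15, 1.76 and 1.96 CPM in siCtrl and 6.14, 4.99 and 3.93 CPM in siCHD3 (1.36 ± 0.24, adjusted p = 0.0016). DDX58 and CTSS were above all 6 siCtrl libraries, and IFIT2 and OAS1 were not. DDX58 shares 43.2% of its exon bases with another gene model on the same strand. HLA-DMA fell by 1.01 (adjusted p = 0.0244) and lost its call under DESeq2 (log2 fold change -0.99), without a filter on low counts (-0.97), and when siCtrl replicate 6, siCHD3 replicate 1 or siCHD3 replicate 3 was left out (adjusted p = 0.0645, 0.0535 and 0.0753).

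Developmental signalling genes changed in both directions. Of 25 tested WNT genes, 2 rose and 2 fell (16%, beside 8.22% of all genes). AXIN2, a feedback inhibitor induced by beta-catenin, had 29.9, 31.9 and 30.3 CPM in siCtrl and 70.0, 71.0 and 68.0 CPM in siCHD3 (1.18 ± 0.13, adjusted p = 9.6e-05), above the 49.4 to 52.5 CPM of siCtrl 1 to 3. AXIN2 shares 25.3% of its exon bases with another gene model on the same strand. WNT10B, a ligand of that pathway, fell by 1.48 ± 0.23 (adjusted p = 0.00073), below all 6. Of 30 TGF-beta and BMP genes 1 rose and 2 fell, which is 10% beside 8.22% of all genes. SMAD3, a signal transducer of the pathway, had 16.5, 14.8 and 15.9 CPM in siCtrl and 41.8, 38.0 and 31.5 CPM in siCHD3 (1.24 ± 0.16, adjusted p = 0.00024), above all 6. Of 27 HOX genes, 2 rose and 1 fell, which is 11.1% beside the same 8.22%. The rises were HOXA10 and HOXA9. HOXA10 went from 6.30, 6.56 and 5.43 CPM to 22.5, 23.8 and 20.6 CPM (1.87 ± 0.17, adjusted p = 2.42e-05), above all 6. HOXA10 and HOXA9 share 16.4% and 13.9% of their exon bases with HOXA10-AS on the opposite strand.

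Of 35 axon guidance genes 5 rose and 2 fell, and of 23 synaptic genes 2 rose and 2 fell. The shares called were 20% and 17.4%, beside 8.22% of all genes. NTN1, netrin, had 2.61, 3.20 and 3.11 CPM in siCtrl and 8.76, 9.41 and 7.88 CPM in siCHD3 (1.54 ± 0.19, adjusted p = 0.00021), with 10.2 to 15.6 CPM in siCtrl 1 to 3. CNTN1, an adhesion molecule of axons, had 12.1, 15.4 and 11.1 CPM in siCtrl and 40.2, 26.8 and 34.4 CPM in siCHD3 (1.39 ± 0.19, adjusted p = 0.00037), above all 6. Of 28 channel and pump genes 7 fell and 1 rose (28.6%, beside the same 8.22%, median -0.44). The falls included ITPR3, a calcium release channel (-2.34 ± 0.33), ATP2B3, a calcium pump of the plasma membrane (-2.61 ± 0.47), and KCND1, a potassium channel (-1.80 ± 0.30), all under 2 CPM in siCtrl. ST3GAL5, the sialyltransferase that makes GM3, was the 1 of 9 ganglioside genes called, with 21.6, 19.4 and 16.9 CPM in siCtrl and 50.06, 47.4 and 50.04 CPM in siCHD3 (1.35 ± 0.15, adjusted p = 9.18e-05). It was called higher against all 6 siCtrl libraries too. Among ganglioside genes 11.1% were called, beside 8.22% of all genes.

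**Figure D4:**
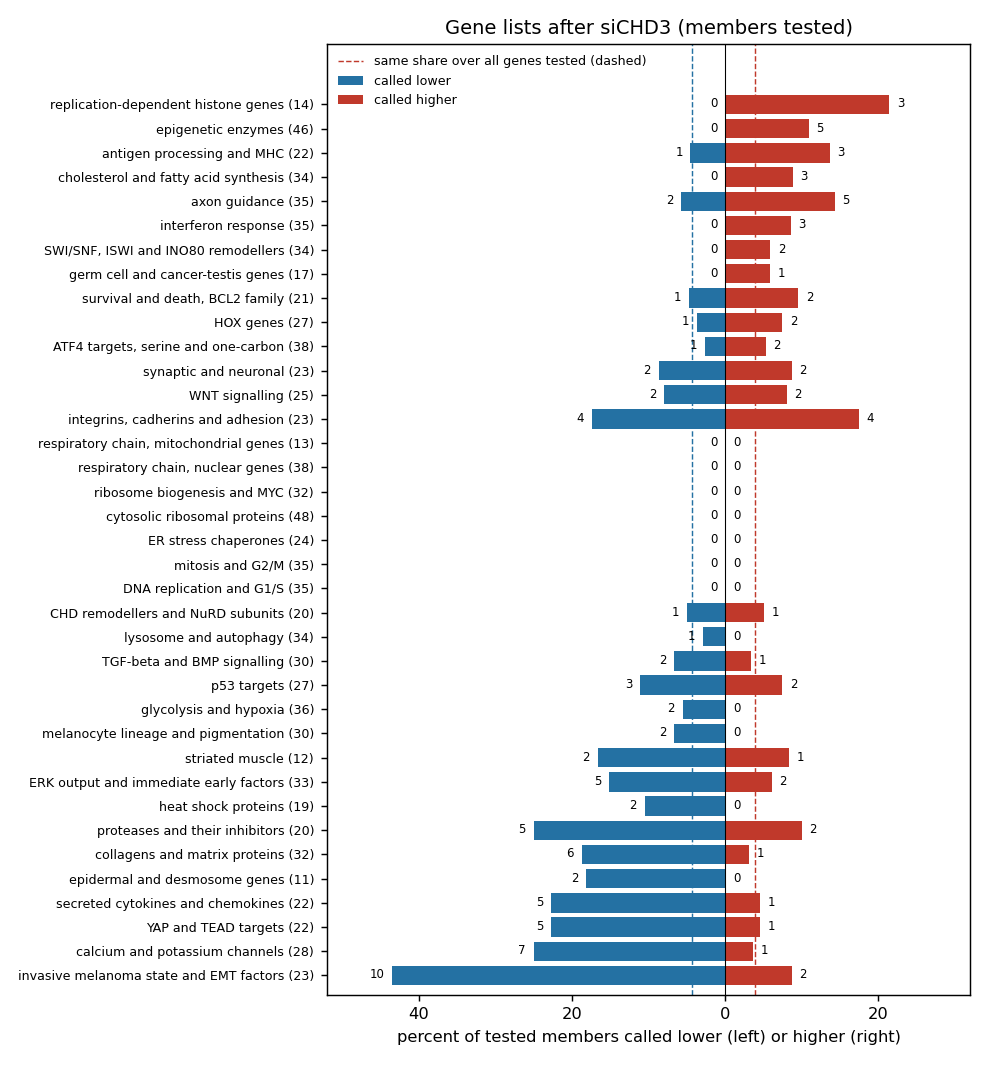
Percent of the tested members of each list with 10 or more tested members that were called lower (blue, left) or higher (red, right) after siCHD3, with the number of members called beside each bar and the share over all genes tested (4.33% and 3.89%) as dashed lines. The invasive state list has 10 falls among 23 genes, and 7 lists have no call.

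The largest rises had little in common by list. FGFBP2, a secreted protein of cytotoxic lymphocytes, had 3.97, 4.03 and 5.31 CPM in siCtrl and 34.4, 40.6 and 36.1 CPM in siCHD3 (3.06 ± 0.18, adjusted p = 2.61e-06). CCM2, a scaffold protein of vascular junctions, had 2.61, 3.61 and 4.92 CPM in siCtrl and 28.2, 38.9 and 25.6 CPM in siCHD3 (3.06 ± 0.25, adjusted p = 2.54e-05). SNN, stannin, a small mitochondrial membrane protein, had 10.6, 14.7 and 13.2 CPM in siCtrl and 84.5, 85.1 and 101 CPM in siCHD3 (2.81 ± 0.17, adjusted p = 2.61e-06). The groups were far apart for all 3 genes, yet siCtrl 1 to 3 held 32.2 to 35.5 CPM of FGFBP2, 15.3 to 29.8 CPM of CCM2 and 75.1 to 91.3 CPM of SNN. IGSF3, a membrane protein of the immunoglobulin superfamily, rose by 2.21 ± 0.16 to 464 to 580 CPM and likewise overlapped siCtrl 1 to 3. OMG, the oligodendrocyte myelin glycoprotein, differed in this respect. It had 1.02, 0.733 and 0.663 CPM in siCtrl, 6.91, 4.87 and 5.10 CPM in siCHD3 (2.80 ± 0.26, adjusted p = 3.54e-05) and 0.619 to 1.05 CPM in siCtrl 1 to 3, and was called higher against all 6.

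The other large rises were TTC3P1 (2.72), C11orf96 (2.71), FAM84B (2.63), EMC10 (2.47), CCDC71L (2.45), EVI5L (2.44) and TRAPPC3L (2.42), given as log2 fold changes. FAM84B had 21.6, 20.4 and 13.5 CPM in siCtrl and 99.2, 91.8 and 151 CPM in siCHD3, and shares 24.6% of its exon bases with PCAT1 on the opposite strand. C11orf96, CCDC71L, FAM84B, TRAPPC3L and TTC3P1 were above all 6 siCtrl libraries, and EMC10 and EVI5L were not. EMC10 had 5.14 to 9.11 CPM in siCtrl 1 to 3 against 2.21 to 2.88 CPM in siCHD3 on the same scale.

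PADI1 to PADI4 and PADI6 encode the peptidylarginine deiminases, which turn arginine in proteins into citrulline, and were at low counts in this table. PADI1 had 0.384, 0.559 and 0.689 CPM in siCtrl and 0.765, 1.02 and 0.577 CPM in siCHD3. The groups overlapped (log2 fold change 0.52 ± 0.35, adjusted p = 0.334). PADI3 was below the filter, with 5, 9 and 12 counts in siCtrl and 0, 3 and 1 in siCHD3, and PADI2, PADI4 and PADI6 had no more than 7 counts in any of the 6 libraries. A list of 12 genes was taken from the study's RT-qPCR work, which followed CHD4 silencing and checked selected genes in independent RNA samples. Of these, 7 could be tested, of which 3 were called lower and 0 higher by edgeR and by DESeq2. That is 42.9%, beside 8.22% of all genes, and 4 had an unadjusted p under 0.05. SERPINB2, an inhibitor of urokinase, had 19.7, 15.6 and 22.1 CPM in siCtrl and 6.01, 6.05 and 2.90 CPM in siCHD3 (-1.94 ± 0.27, adjusted p = 0.00082), and ATP2B3 fell by 2.61. After siCHD3 both genes overlapped siCtrl 1 to 3, which held 4.11 to 7.44 CPM of SERPINB2 and 0.158 to 0.478 CPM of ATP2B3. SERPINB2 shares 20% of its exon bases with another gene model on the same strand. MAP2, a microtubule protein of neurons, had a change of 0.95 ± 0.17 (adjusted p = 0.0017) and CNTFR one of -0.62 ± 0.32 (adjusted p = 0.19).

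Where the response to siCHD3 differed from that to siCHD4 was tested directly over the 12 libraries, each silencing against the siCtrl libraries of its own table. The response was higher to siCHD3 in 966 genes and lower in 1059 of 17357 tested (5.57% and 6.1%, or 11.7% together), and 8.58% were called after siCHD4 in this fit. Without siCtrl replicate 3 they were 1180 and 1618, and without siCtrl replicate 1 they were 1303 and 1196. Both targets differed. CHD4 changed by -3.02 after siCHD4 and 0.77 after siCHD3 (difference 3.79 ± 0.22, adjusted p = 4.6e-06), and CHD3 by 0.46 and -2.30 (difference -2.75 ± 0.23, adjusted p = 2.7e-05).

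Several genes with large differences moved in opposite directions. The genes shown here had to be tested after siCHD3, with separate groups and a mean of 50 counts. ANKRD1 changed by 3.78 after siCHD4 and by -3.72 after siCHD3 (difference -7.50 ± 0.70, adjusted p = 5.28e-05). UCN2 changed by 3.46 and -2.93 (difference -6.38 ± 0.41, adjusted p = 4.83e-06), and ITGAX by 3.30 and -2.20 (difference -5.49 ± 0.34, adjusted p = 4.83e-06). The starting levels differed as well. ANKRD1 had 0.647, 0.229 and 0.225 CPM in siCtrl 1 to 3 and 4.08, 6.45 and 5.60 CPM in siCHD4, against 8.23, 9.45 and 6.17 CPM in siCtrl 4 to 6 on the same scale. SP140, a bromodomain protein of lymphocytes, rose by 5.09 after siCHD4 and was not called after siCHD3 (-0.78). PTPRN, a protein of secretory granules, and DIRAS3 differed by -5.13 and -5.28.

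In the other direction, CCM2 changed by -0.93 after siCHD4 and by 3.06 after siCHD3 (difference 3.98 ± 0.39, adjusted p = 6.83e-05). HCN2, a pacemaker channel, changed by -1.55 and 2.32 (difference 3.88 ± 0.61), SBK1, a kinase, by -1.92 and 1.96, and RNASE1, a secreted ribonuclease, by -1.51 and 2.35. Starting levels differed here too, and siCHD3 overlapped siCtrl 1 to 3 in each of these genes. Mean CPM in siCtrl 1 to 3 and in siCtrl 4 to 6 was 23.0 and 3.50 for CCM2 and 46.4 and 5.27 for HCN2. For SBK1 it was 2.17 and 0.295, and for RNASE1 12.2 and 2.71. BSN, a presynaptic scaffold, and TPBGL fell by 3.30 and 3.1 after siCHD4 and were not called after siCHD3. SNAI2 also differed, at -1.27 and 1.98 (difference 3.25 ± 0.32, adjusted p = 7.23e-05), as did PADI1, at 3.65 and 0.52 (difference -3.13 ± 0.47, adjusted p = 0.0011). PADI3 and RAC2, a small GTPase of blood cells, had larger fitted differences (-10.21 and -7.04, adjusted p = 1.77e-05 and 0.0002), but were below the filter in the siCHD3 table, and fitted values of genes near 0 counts depend on the prior count. PADI3 had 4.05, 3.83 and 4.25 CPM in siCHD4 and no more than 0.285 CPM in any other library. RAC2 had 1.13, 1.68 and 1.498 CPM in siCHD4 and no more than 0.190 CPM in any other library. ATP2B3, with a mean of 34 counts in siCtrl, differed by -6.52 (3.91 after siCHD4, -2.61 after siCHD3). SERPINB2 fell after both, by 1.91 and 1.94, and its difference of -0.03 ± 0.45 was not past the threshold (adjusted p = 0.978). Its 2.80 to 5.73 CPM after siCHD3 overlapped the 4.11 to 7.44 CPM of siCtrl 1 to 3, whereas siCtrl 4 to 6 held 14.7 to 20.5 CPM. Against all 6 siCtrl libraries SERPINB2 lost its call. MITF changed by 0.12 and -0.12 (difference -0.24 ± 0.41, adjusted p = 0.756).

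**Figure D5:**
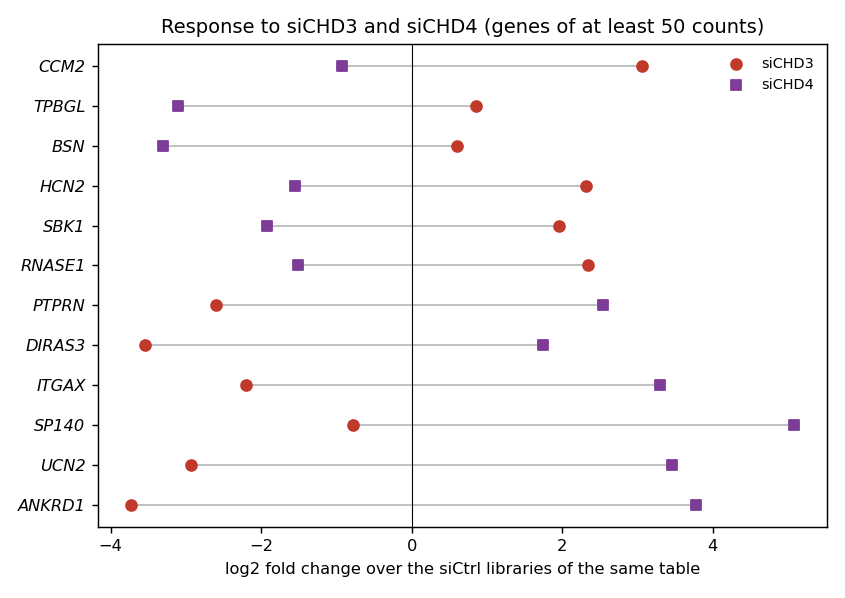
Log2 fold changes after siCHD3 (circles) and after siCHD4 (squares), each over the siCtrl libraries of its own table, for the 6 genes per direction with the largest called difference among those with separate siCHD3 and siCtrl groups and a mean of at least 50 counts in that table. The 6 genes at the top have higher values after siCHD3 and the 6 at the bottom lower ones, with ANKRD1 at -3.72 and 3.78.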

How the data were processed

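Cells were taken 72 h after transfection. Per the labels, 6 ng of RNA was amplified as cDNA and each library received 8 PCR cycles. Tools named in the submitters' processing notes, with no roles, are TopHat2 2.0.10, Bowtie2 (2.1.0, 2.2.8), HTSeq, DESeq2, CASAVA 1.8.2 and cutadapt 1.10, on hg19. Strand of counting, filters and annotation release: not given in the sources used here. Every test used the raw counts that the authors deposited for Ensembl genes. The authors also deposited a normalized signal (each library's counts over its own size factor) and the same per kb of gene length. Their log2 fold changes and p-values were deposited too, and were neither used nor compared. Another 5 rows name no gene and hold no counts.

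Low genes were removed (filterByExpr), libraries scaled with TMM (factors 0.97 to 1.04) and genes fitted in R 4.3.3 by quasi-likelihood (edgeR 4.0.16, robust), with Benjamini-Hochberg adjustment over all genes tested. The thresholds for a call, 0.05 for the adjusted p and 1 for the size of the log2 change, follow the study's methods. SE is the absolute log2 fold change divided by the square root of the F statistic. The biological coefficient of variation was 0.178. The difference between silencings was an interaction over 12 libraries and 29152 genes with counts in both tables, with CPM on that scale given for siCtrl replicates 1 to 3. No library was a copy of another, by a chi-square per degree of freedom of 24.7 or more within groups. Precision is limited by 3 libraries per group.

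Named genes were CHD3, CHD4, CHD5, the PADI family, the genes of the study's RT-qPCR and a few lineage, cycle and metabolic genes; the 12 per direction with the largest change among those called, with a symbol, no overlap of groups and a mean of 50 counts; the 6 per direction with the smallest p; up to 4 called members per list; and 6 per direction for the difference. Some genes that these rules name are not reported here. A few genes chosen after their values were seen are named as such. The members, lists and rules were chosen with earlier results of these data known. List members were looked up by current and older symbols. Coordinates and exon overlap came from GENCODE v44lift37 (97.3% of tested genes matched), and promoters from RefSeq (GRCh38.p14 windows placed on GRCh37 by exact match). The scripts were tested on simulated data. Alternatives were RLE scaling, DESeq2 1.42.0, other filters, glmTreat, a dispersion over both tables, leaving out each library and, chosen after seeing the data, all 6 siCtrl libraries as controls.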

Additional observations from a re-analysis of the deposited data

How the results depend on the processing

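CHD3 kept its direction and its call under every alternative run (log2 fold change -2.6 to -2.24). No gene called against siCtrl 4 to 6 changed sign under RLE scaling, DESeq2, either filter, a dispersion over both tables or leaving out any library. Named genes near the fold threshold lost their call in several of 12 settings, which include all 6 siCtrl libraries as controls. Among them were SETD7 and HLA-DMA (6 settings each), ASNS (5), MMP2 and SMARCA1 (4 each), and DNMT3B, LUM and PLK3 (3 each). ASNS lost its call under DESeq2 too (-0.99). Of the 627 genes higher and 698 lower, DESeq2 called 588 and 567 again. A requirement of 1 CPM in 3 libraries left 428 genes lower, since fewer genes were tested. By adjusted p alone 1856 were higher and 1419 lower, and with glmTreat against 1.5-fold 400 and 319. Leaving out 1 library gave 552 to 655 higher and 540 to 757 lower. With all 6 siCtrl libraries as controls, chosen after seeing the data, 13 were higher and 6 lower, and 83 of the called genes changed sign. Among named genes, the changes of EMC10 (-0.67), CHD8 (-0.012), PSMB9 (-0.30), SCD (-0.038), NTN1 (-0.0095), HDAC11 (-0.34) and SMARCA4 (-0.24) then turned negative, and the cause was not tested. For the difference of the responses, leaving out 1 library gave 687 to 1303 genes higher and 780 to 1618 lower, with the highest counts without siCtrl replicates 1 and 3. No paired analysis was possible because siCHD3 replicates 1 to 3 and siCtrl replicates 4 to 6 share no replicate number. At 3 libraries per group, small changes and genes under 1 CPM limit what can be called.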

Other observations

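Neighbouring genes of an olfactory receptor cluster on chromosome 11 fell together. These were chosen after their values were seen. All 5 tested OR51 genes (OR51B2, OR51B4, OR51B5, OR51B8P and OR51K1P) were called lower, with a median log2 fold change of -1.95, beside 4.33% of all genes called lower. They were the only falls called among 13 olfactory receptor genes tested, of which 1 was called higher. OR51B4 (chr11:5322244-5323176 of GRCh37) had 12.2, 10.4 and 9.11 CPM in siCtrl and 2.67, 2.48 and 3.06 CPM in siCHD3 (-1.94 ± 0.20, adjusted p = 5.74e-05), with 1.94 to 5.37 CPM in siCtrl replicates 1 to 3. HBE1, the embryonic beta-like globin, whose gene model spans chr11:5289575-5526882, had 20.2, 13.9 and 18.6 CPM and 9.09, 9.29 and 7.52 CPM (-1.02 ± 0.19, adjusted p = 0.0022) and was below all 6 siCtrl libraries. It shares 81.3% of its exon bases with another gene on the same strand, so its counts are uncertain. OR51B4, OR51B8P and OR51K1P lie within the span of HBE1 on the same strand. Whether these falls are independent of each other was not tested. The OR51 genes other than OR51B4 were under 1.3 CPM.

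PRDM7, MORC1 and PRDM9 were also chosen after their values were seen. They are no sign of a theme, since of 17 tested genes of the germ cell list 0 were called lower and 1 higher by edgeR and by DESeq2, with 3 at an unadjusted p under 0.05. In that list 5.88% were called, beside 8.22% of all genes. PRDM7, a histone methyltransferase related to PRDM9, had 129, 100 and 78.8 CPM in siCtrl and 21.2, 21.4 and 41.9 CPM in siCHD3 (-1.87 ± 0.30, adjusted p = 0.0029). MORC1, an ATPase of spermatogenesis, had 66.3, 46.6 and 35.5 CPM and 14.0, 15.0 and 9.05 CPM (-1.97 ± 0.26, adjusted p = 0.00083). PRDM9, the meiotic hotspot factor, was counted 17, 29 and 12 times in siCtrl, against 0, 0 and 4 times in siCHD3. siCtrl replicates 1 to 3 held 20.6 to 29.9 CPM of PRDM7 and 3.21 to 7.39 CPM of MORC1. PRDM7 and PRDM9 are near-identical copies, and their reads may be split. Of 13 tested protocadherin gamma genes, which share their last exons, 3 rose (median 0.93), and of 13 keratins 5 fell (median -1.15). Over all genes, 3.89% were called higher and 4.33% lower. KCNJ2, ARHGEF3, TMEM132B, LRP2, SAT1 and FYB were called higher and PNP, FYCO1 and ISG20L2 lower also against all 6 siCtrl libraries.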
